A study of Mus musculus with 16 samples.

Results

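The 6 genes described here, 1700001O22Rik, Mettl11b, Pla2g7, Fam131a, Gm12319 and Kcnn2, were lower in the tibialis anterior of Bin1mck-/- mice than of wild-type mice and higher again in Bin1mck-/- mice given the antisense oligonucleotide ASO1. They were selected on those differences, so the fall, the rise and the difference between genotypes in the effect of ASO1 are given as a description, and nothing is read from their calls. The table of counts held 29730 genes, of which 14960 passed the filter on low counts, and all 6 genes were among those. Within the 97 genes that were differentially expressed (DEGs) in both directions, 1700001O22Rik had the largest fall and the largest rise, and the other members took ranks 9 to 23 for the fall and 13 to 36 for the rise. A DEG is a gene with an edgeR adjusted P value under 0.05.

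RNA was sequenced from the tibialis anterior, a leg muscle, of C57BL/6N male mice aged 7 weeks, with 4 samples in each of 4 groups. WT_PBS and WT_ASO were wild-type mice given PBS or ASO1, and KO_PBS and KO_ASO were Bin1mck-/- mice given PBS or ASO1. The series names Dnm2 as the transcript lowered by ASO1. The dose, the schedule, what drives the deletion of Bin1 and whether the wild-type mice carried an unrecombined allele or a Cre were not stated in the sources used. Total counts ran from 27591900 to 40862854 per sample. Bin1 was on average 494.7 CPM in WT_PBS, 539.0 in WT_ASO, 44.9 in KO_PBS and 35.5 in KO_ASO, and Dnm2 was 56.1, 25.7, 62.8 and 24.8 CPM in the same order, where CPM is the count scaled to library size. Fast fibre markers were abundant in every sample, with a sum of 13 genes between 117600 and 241100 CPM.

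BIN1 is a protein that bends and tubulates membranes and helps to form the transverse tubules of muscle fibres, and DNM2 is a GTPase that cuts membranes. Mutations in either gene cause centronuclear myopathy. The members were not chosen from 1 pathway. Mettl11b encodes an enzyme of the family that methylates the amino end of proteins, and Pla2g7 a secreted phospholipase that breaks down platelet-activating factor (PAF) and oxidised phospholipids. Kcnn2 encodes SK2, a small-conductance potassium channel opened by intracellular calcium. 1700001O22Rik and Fam131a encode proteins of uncertain function, and Gm12319 is annotated as a long intergenic non-coding RNA.

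For all 6 genes, every KO_PBS sample lay below all 12 other samples, a pattern seen in 1.86% of the genes tested. KO_PBS held 5.39% of the WT_PBS mean for 1700001O22Rik, 33.1% for Pla2g7 and 42.8% to 48.5% for the other 4. KO_ASO held 73.7% of the WT_PBS mean for 1700001O22Rik, 76.5% for Fam131a, 80.9% for Pla2g7, 82.1% for Gm12319, 91.4% for Kcnn2 and 99.1% for Mettl11b. All 6 were DEGs lower in KO_PBS vs WT_PBS, where 5.12% of genes were called lower and 12.6% either way. All 6 were DEGs higher in KO_ASO vs KO_PBS, where 0.802% were called higher and 3.64% either way, and 0.648% of genes were called in both comparisons in those directions. The counts over the members follow from their choice. The rise of Fam131a was not called in 6 of 23 alternatives, and that of Kcnn2 in 1. With library totals in place of TMM scaling, 260 of 2202 DEGs were lower in KO_PBS, beside 766 of 1878, and 63 of 760 were higher in KO_ASO, beside 120 of 544. The median log2 fold change (log2FC) over the 6 was -1.14 in the first comparison and 1.07 in the second, beside -0.01 and 0.01 over all genes tested, and both comparisons share the KO_PBS samples. In bulk muscle, fewer cells of a type and less RNA per cell cannot be told apart.

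**Figure D1:**
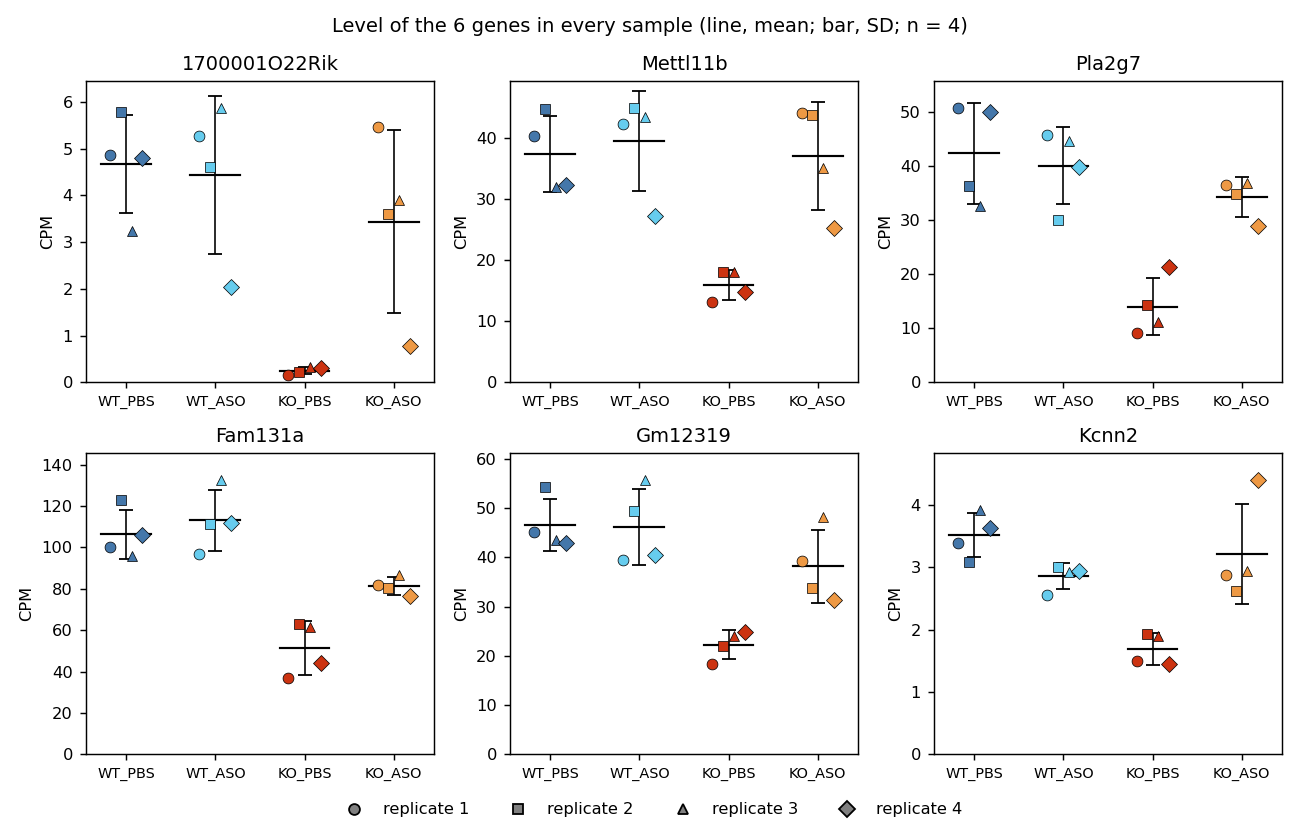
CPM on linear axes from 0 for each of the 6 genes in the 16 samples, in columns for the 4 groups, with marker shapes for replicate numbers, a line at the mean and bars of 1 SD. In every panel the 4 KO_PBS samples are the lowest, and in 5 panels replicate 4 is the lowest KO_ASO sample.

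Mettl11b (ENSMUSG00000040113, chromosome 1, 163702256 to 163725232, minus strand, GRCm38, protein coding) measured 40.4, 44.8, 32.0 and 32.4 CPM in WT_PBS replicates 1 to 4. It measured 42.4, 44.9, 43.4 and 27.3 CPM in WT_ASO. In KO_PBS it measured 13.1, 18.1, 18.04 and 14.8 CPM, below every other sample. In KO_ASO it measured 44.1, 43.8, 35.2 and 25.3 CPM, so that only replicate 4 lay under the WT_PBS range. The log2FC was -1.22 (SE 0.19) for KO_PBS vs WT_PBS and 1.21 (SE 0.19) for KO_ASO vs KO_PBS. The means were 37.4 ± 6.24 CPM in WT_PBS, 39.5 ± 8.19 in WT_ASO and 37.1 ± 8.87 in KO_ASO (SD, n = 4), an order within the spread of the samples, and then 16.01 ± 2.47 in KO_PBS (SD, n = 4).

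The 16 other small protein methyltransferases examined, which modify single proteins such as chaperones, elongation factors and calmodulin, held 1 DEG higher and 1 lower in KO_PBS vs WT_PBS, or 2 and 2 with DESeq2, the replicate block or without WT_ASO replicate 3, and 2 and 1 in 6 other alternatives, library totals among them. Mettl21c, which methylates a chaperone in muscle, measured 64.6, 138.9, 45.4 and 114.7 CPM in WT_PBS and 9.40, 23.0, 21.1 and 21.4 in KO_PBS, a log2FC of -2.28 (SE 0.42, adjusted P = 0.00347 by edgeR). Its KO_ASO samples measured 57.1, 32.1, 88.8 and 42.5 CPM, all above KO_PBS, with a log2FC of 1.56 (SE 0.42) that did not pass the threshold (adjusted P = 0.0545 by edgeR). It passed with DESeq2, limma-voom, library totals or the replicate block, and without WT_PBS replicate 3 or WT_ASO replicate 1. Mettl21a was higher in KO_PBS than in WT_PBS (log2FC 0.58, SE 0.09, adjusted P = 0.000924 by edgeR) and lower in KO_ASO than in KO_PBS (log2FC -0.48, SE 0.09, adjusted P = 0.0097 by edgeR), the second call being lost when the compared groups were fitted alone. Ntmt1, the paralog of Mettl11b that methylates amino ends in most tissues, had mean levels of 12.6, 12.1, 12.2 and 12.3 CPM in WT_PBS, WT_ASO, KO_PBS and KO_ASO, with a log2FC of -0.04 (SE 0.12) for KO_PBS vs WT_PBS (adjusted P = 0.871 by edgeR). The median log2FC of the list was 0.05 in KO_PBS vs WT_PBS and -0.0045 in KO_ASO vs KO_PBS.

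Pla2g7 (ENSMUSG00000023913, chromosome 17, 43568098 to 43612201, plus strand, protein coding) measured 50.7, 36.3, 32.6 and 50.1 CPM in WT_PBS and 45.8, 30.1, 44.6 and 39.8 CPM in WT_ASO. In KO_PBS it measured 9.13, 14.4, 11.2 and 21.4 CPM, and in KO_ASO 36.6, 34.9, 36.8 and 28.9 CPM. The KO_ASO samples overlapped both wild-type groups and did not overlap KO_PBS. The log2FC was -1.60 (SE 0.23) for KO_PBS vs WT_PBS and 1.29 (SE 0.22) for KO_ASO vs KO_PBS. The means stood in the order WT_PBS, 42.4 ± 9.34 CPM, WT_ASO, 40.1 ± 7.15, KO_ASO, 34.3 ± 3.68, and KO_PBS, 14.0 ± 5.36 (SD, n = 4), and neighbours in the first 3 places differed by less than their spread. The coefficient of variation of Pla2g7 was 38.2% in KO_PBS and 10.7% in KO_ASO.

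Macrophages are a known source of Pla2g7, and macrophage markers moved the other way. All 15 markers were DEGs higher in KO_PBS than in WT_PBS, and their summed level was 53.0 to 86.5 CPM in WT_PBS, 55.9 to 123.8 in WT_ASO, 137.6 to 431.9 in KO_PBS and 58.0 to 88.3 in KO_ASO, with no marker at 0 in any KO_PBS sample. KO_PBS replicate 4 had both the highest macrophage sum, 431.9 CPM, and the highest Pla2g7 of its group, 21.4 CPM, while replicate 1 with the next sum, 232.5 CPM, had the lowest Pla2g7, 9.13 CPM. Without replicate 4 the log2FC of Pla2g7 in KO_PBS vs WT_PBS was -1.87, and 10 of the 15 markers were called higher. The count was 8 without WT_PBS replicate 4, 9 without WT_PBS replicate 3 and 9 without the filter on low counts. In KO_ASO vs KO_PBS 10 markers were called lower, but 3 without KO_ASO replicate 1, 4 without KO_ASO replicate 2 or 3 or KO_PBS replicate 1 or 4, 4 without the filter and 3 with the compared groups alone. The part of these cells in the level of Pla2g7 was not tested.

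**Figure D2:**
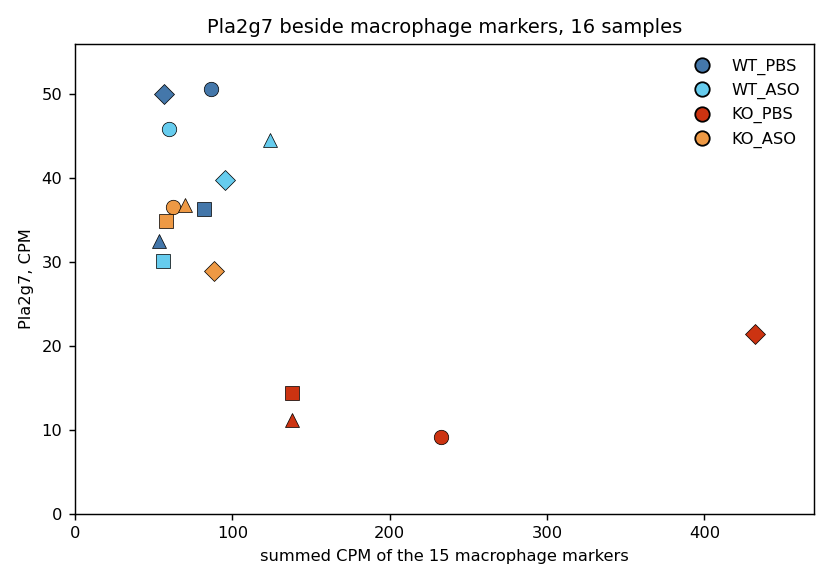
Level of Pla2g7 (CPM, vertical axis) against the summed level of 15 macrophage markers (CPM, horizontal axis) in the 16 samples, coloured by group, with circles, squares, triangles and diamonds for replicates 1 to 4. The 4 KO_PBS samples have the highest marker sums, 137.6 to 431.9 CPM, and the lowest Pla2g7.

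Of 18 other genes of PAF and lysophospholipid metabolism, 0 were called higher and 2 lower in KO_PBS vs WT_PBS, and the median log2FC of the list was 0.13. With library totals in place of TMM scaling the list held 2 called higher and 0 lower. It held 2 higher and 2 lower with the replicate block or without KO_PBS replicate 3, and 1 higher and 2 lower with DESeq2. Pla2g6, a calcium-independent phospholipase A2, had a log2FC of -0.38 (SE 0.10, adjusted P = 0.0187 by edgeR), and Pla2g16, an acyltransferase and phospholipase of fat and muscle, one of -0.29 (SE 0.08, adjusted P = 0.0296 by edgeR). Both calls were lost with library totals and without KO_PBS replicate 1 or WT_PBS replicate 4, and that of Pla2g16 also without the filter on low counts and without WT_PBS replicate 3 or KO_PBS replicate 4. Ptafr, the receptor of PAF, was lower in KO_ASO than in KO_PBS (log2FC -1.84, SE 0.42, adjusted P = 0.0244 by edgeR). Its level was between 0.9996 and 5.05 CPM in KO_PBS and between 0.543 and 0.90 CPM in KO_ASO, and the call was lost without KO_PBS replicate 4 or KO_ASO replicate 1 or 2 and with the compared groups alone, with adjusted P values of edgeR, DESeq2 and limma from 0.00114 to 0.0883 over 23 alternatives.

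Kcnn2 (ENSMUSG00000054477, chromosome 18, 45268860 to 45686024, plus strand, protein coding) was a transcript of low level, with 54 to 151 counts per sample, and lies 12.8 Mb from Bin1 on the same chromosome. It measured 3.39, 3.09, 3.92 and 3.64 CPM in WT_PBS and 2.55, 3.01, 2.92 and 2.95 CPM in WT_ASO, with the highest WT_ASO sample at 3.01 and the lowest WT_PBS sample at 3.09. In KO_PBS it measured 1.49, 1.93, 1.90 and 1.46 CPM. In KO_ASO it measured 2.88, 2.62, 2.94 and 4.39 CPM, with replicate 4 the highest of all 16 samples. The log2FC was -1.05 (SE 0.17) for KO_PBS vs WT_PBS and 0.92 (SE 0.17) for KO_ASO vs KO_PBS, the latter short of the threshold with the compared groups alone. Its order differed from that of the other members: WT_PBS, 3.51 ± 0.351 CPM, KO_ASO, 3.21 ± 0.80, WT_ASO, 2.86 ± 0.206, and KO_PBS, 1.69 ± 0.256 (SD, n = 4), where KO_ASO overlapped both of its neighbours. The place of KO_ASO above WT_ASO rested on KO_ASO replicate 4, without which the log2FC for KO_ASO vs WT_ASO was -0.0221.

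Of the other 3 SK channels, 1 was called higher and 0 lower in KO_PBS vs WT_PBS. Kcnn3, the SK3 channel, which is known to appear in muscle after loss of the nerve, measured 6.55, 3.43, 5.32 and 4.04 CPM in WT_PBS, 4.97, 3.79, 5.07 and 5.61 in WT_ASO, 28.5, 17.7, 17.0 and 17.8 in KO_PBS and 9.59, 9.59, 8.86 and 8.57 in KO_ASO. It was higher in KO_PBS than in WT_PBS (log2FC 2.06, SE 0.20, adjusted P = 1.15e-05 by edgeR) and lower in KO_ASO than in KO_PBS (log2FC -1.15, SE 0.19, adjusted P = 0.00379 by edgeR), and its KO_ASO samples lay between those groups without overlap, as in 0.582% of all genes tested. Kcnn1, the SK1 channel, had means of 23.2, 23.5, 21.6 and 22.6 CPM in WT_PBS, WT_ASO, KO_PBS and KO_ASO, and Kcnn4, at 0.314 to 1.08 CPM, had a log2FC of 0.61 (SE 0.31) in KO_PBS vs WT_PBS, neither called in any comparison. Per kb of exon, the mean level of Kcnn2 in WT_PBS was 0.47 CPM, near that of Kcnn3, 0.462, and below that of Kcnn1, 5.05. In KO_PBS it was 0.227 CPM per kb for Kcnn2 and 1.94 for Kcnn3. Of 16 denervation and fetal markers, 14 were called higher in KO_PBS vs WT_PBS and 7 lower in KO_ASO vs KO_PBS, the latter 4 without KO_PBS replicate 1. Their summed level was 172.1 to 192.9 CPM in WT_PBS, 211.2 to 247.3 in WT_ASO, 410.6 to 555.8 in KO_PBS and 246.1 to 331.1 in KO_ASO.

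**Figure D3:**
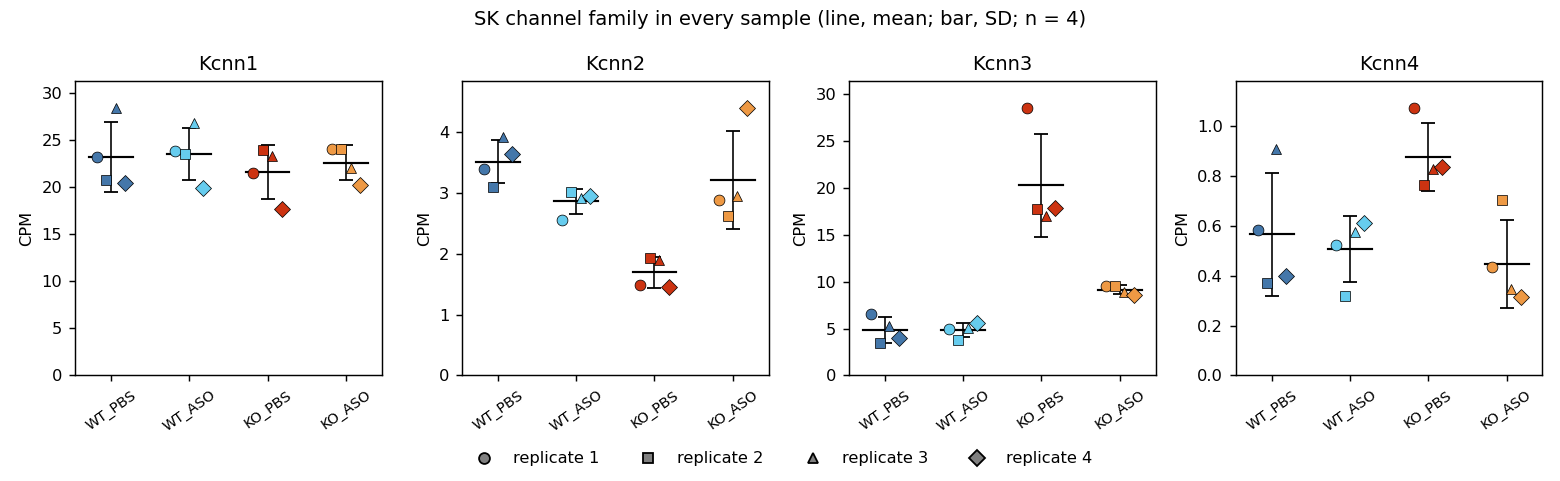
CPM on linear axes from 0 for the 4 genes of the SK channel family in the 16 samples, by group, with marker shapes for replicate numbers, a line at the mean and bars of 1 SD. Kcnn2 is lowest in KO_PBS, where Kcnn3 is highest at 17.0 to 28.5 CPM, and Kcnn1 overlaps between all groups.

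Of 18 other potassium channel genes of muscle, 16 passed the filter, with a median log2FC of -0.07 in KO_PBS vs WT_PBS and 0.11 in KO_ASO vs KO_PBS. In KO_PBS vs WT_PBS 2 were called higher, Abcc8 and Kcnq5, and 3 lower, Kcnj12, Kcna7 and Kcnc1, whereas with library totals 3 were higher and 1 lower. The calls of Abcc8, Kcnj12 and Kcna7 were lost in 7, 8 and 8 of 23 alternatives, mostly on leaving out a single WT_PBS or KO_PBS sample. Kcnc1, the voltage-gated channel Kv3.1, measured 200.7 to 222.7 CPM in WT_PBS, 166.5 to 201.4 in WT_ASO, 149.2 to 174.8 in KO_PBS and 202.3 to 221.0 in KO_ASO. Its log2FC was -0.43 (SE 0.08, adjusted P = 0.00201 by edgeR) for KO_PBS vs WT_PBS and 0.39 (SE 0.08, adjusted P = 0.0114 by edgeR) for KO_ASO vs KO_PBS. The effect of ASO1 on Kcnc1 in knockout minus that in wild-type mice was 0.58 on the log2 scale (SE 0.11, adjusted P = 0.0261 by edgeR), a call that 9 of 22 alternatives lost, and its rise in KO_ASO was not called without KO_ASO replicate 2 (adjusted P = 0.0504 by edgeR). Kcnq5, the voltage-gated channel Kv7.5, moved the other way, with a log2FC of 0.66 (SE 0.16, adjusted P = 0.0109 by edgeR) and then -0.65 (SE 0.16, adjusted P = 0.0313 by edgeR), the second lost without KO_PBS replicate 1 or 4, without KO_ASO replicate 1 or 3 and with the compared groups alone.

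1700001O22Rik (ENSMUSG00000044320, chromosome 2, 30794769 to 30803661, minus strand, protein coding) was close to absent in KO_PBS, with 6, 8, 13 and 12 counts in replicates 1 to 4. These counts were 0.165, 0.227, 0.317 and 0.296 CPM. WT_PBS samples measured 4.86, 5.77, 3.24 and 4.79 CPM and WT_ASO samples 5.27, 4.60, 5.86 and 2.03 CPM. KO_ASO samples measured 5.46, 3.61, 3.91 and 0.767 CPM, the last from 22 counts, which was above every KO_PBS sample and below every wild-type sample. The log2FC was -4.18 (SE 0.52) for KO_PBS vs WT_PBS and 3.75 (SE 0.52) for KO_ASO vs KO_PBS, the widest errors of the 6. The means were 4.67 ± 1.05 CPM in WT_PBS, 4.44 ± 1.69 in WT_ASO, 3.44 ± 1.96 in KO_ASO and 0.251 ± 0.069 in KO_PBS (SD, n = 4), and the first 3 did not differ beyond their spread.

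1700001O22Rik and Mettl11b lie on different chromosomes, and their profiles over the 16 samples were among the closest found. The distance used is the root mean square difference of log2 CPM after each gene was set to mean 0 and SD 1, and its median between a member and all genes was 1.40 to 1.43. The distance between this pair was 0.265, which made 1700001O22Rik the nearest gene to Mettl11b and Mettl11b the second nearest to 1700001O22Rik, after Usp7 at 0.254. Both genes were selected on the same fall and rise, which the distance holds, so nothing is read from this closeness. The 250 bases upstream of their annotated starts are shown because these 2 profiles were so close. Both are from RefSeq on GRCm38.p6, read 5′ to 3′ along the gene's minus strand, and lie outside the GENCODE gene, at chr2:30803665-30803914 and chr1:163725233-163725482. Capitals mark the E-box CAGGTG, here in its reverse form CACCTG, at -69 from the start of Mettl11b.
1700001O22Rik: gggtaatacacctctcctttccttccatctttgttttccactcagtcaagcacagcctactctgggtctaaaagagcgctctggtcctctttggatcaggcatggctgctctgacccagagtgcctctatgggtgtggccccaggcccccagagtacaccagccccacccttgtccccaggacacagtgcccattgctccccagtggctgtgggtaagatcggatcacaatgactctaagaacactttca
Mettl11b: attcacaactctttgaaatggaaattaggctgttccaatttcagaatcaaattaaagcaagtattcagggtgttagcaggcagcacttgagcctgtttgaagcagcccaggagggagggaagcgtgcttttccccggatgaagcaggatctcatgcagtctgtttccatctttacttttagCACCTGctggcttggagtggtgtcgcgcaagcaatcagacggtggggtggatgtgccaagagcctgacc
On either strand, CAGGTG occurred in 17.2% of 32851 promoter windows of this length. CAGCTG, the E-box form favoured by MYOD1 and MYOG, occurred in 13.0% of them and in neither of these 2. A CCAAT box stood at -216 in Mettl11b, as in 33.8% of all windows. Neither window held the TATA box TATAAA, present in 12.4% of all. The same was true of the GC box GGGCGG, present in 32.7%. It was also true of the nuclear receptor half-site AGGTCA, present in 14.0%, and of the MEF2 site and the CArG box, searched by their degenerate patterns and present in 0.508% and 1.47%. Windows were also given for Fam131a and Pla2g7 and for an inner start of 1700001O22Rik, 5 windows in all, of which CAGGTG was in 2 and CAGCTG in 0. A match, or its absence, describes only the letters of these windows.

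Fam131a (ENSMUSG00000050821, chromosome 16, 20693241 to 20703048, plus strand, protein coding) measured 100.1, 123.0, 95.8 and 106.0 CPM in WT_PBS and 96.6, 111.1, 132.3 and 111.9 CPM in WT_ASO. In KO_PBS it measured 36.9, 63.1, 61.7 and 44.2 CPM. In KO_ASO it measured 81.6, 80.4, 86.7 and 76.4 CPM, the narrowest group of any member at a coefficient of variation of 5.20%. All 4 KO_ASO samples lay above KO_PBS and below both wild-type groups, as in 0.147% of all genes tested, and nothing is read from this share since Fam131a was chosen on its fall and rise. The log2FC was -1.05 (SE 0.15) for KO_PBS vs WT_PBS and 0.66 (SE 0.15) for KO_ASO vs KO_PBS, the smallest rise of the 6. This rise fell short of the threshold without KO_ASO replicate 1, 2 or 3, without KO_PBS replicate 1 or 4, and with the compared groups alone. The means stood in the order WT_ASO, 113.0 ± 14.7 CPM, WT_PBS, 106.2 ± 11.9, KO_ASO, 81.3 ± 4.23, and KO_PBS, 51.5 ± 13.0 (SD, n = 4), where only the first 2 overlapped. Of its family, Fam131c did not pass the filter, and Fam131b, at 0.0259 to 0.542 CPM, was called in no comparison.

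Gm12319 (ENSMUSG00000087523, chromosome 11, 70654741 to 70656493, minus strand) has 357 bases of exon. It measured 45.1, 54.3, 43.6 and 43.0 CPM in WT_PBS and 39.4, 49.4, 55.6 and 40.4 CPM in WT_ASO. In KO_PBS it measured 18.4, 21.9, 24.0 and 24.9 CPM, and in KO_ASO 39.2, 33.8, 48.1 and 31.4 CPM, with 3 of the 4 below the lowest WT_PBS sample. The log2FC was -1.06 (SE 0.14) for KO_PBS vs WT_PBS and 0.77 (SE 0.14) for KO_ASO vs KO_PBS. The means were 46.5 ± 5.29 CPM in WT_PBS, 46.2 ± 7.72 in WT_ASO, 38.2 ± 7.42 in KO_ASO and 22.3 ± 2.90 in KO_PBS (SD, n = 4), with overlap between neighbours except for KO_PBS. Per kb of exon it had the highest level of the 6, with a mean of 130.2 CPM in WT_PBS, beside 36.6 for Fam131a, 20.2 for Mettl11b, 14.6 for Pla2g7, 1.67 for 1700001O22Rik and 0.47 for Kcnn2.

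Of the 5 tested genes beside or overlapping Fam131a and Gm12319, Eif4g1 and Eno3 were called lower in KO_PBS vs WT_PBS and 3 were not called. Eif4g1, a translation initiation factor gene on the same strand that ends 357 bp before Fam131a, had a log2FC of -0.35 (SE 0.09, adjusted P = 0.0211 by edgeR) in KO_PBS vs WT_PBS and 0.28 (SE 0.09, adjusted P = 0.119 by edgeR) in KO_ASO vs KO_PBS. Clcn2, a chloride channel gene on the other strand, shares 85 exon bases with Fam131a and had a mean of 88.9 counts per sample. Its log2FC in KO_PBS vs WT_PBS was -0.11 (SE 0.20, adjusted P = 0.77 by edgeR). Polr2h, an RNA polymerase subunit gene 14617 bp to the right of Fam131a, had a log2FC of 0.19 (SE 0.13, adjusted P = 0.366 by edgeR). Eno3, the muscle enolase, lies 709 bp from Gm12319 on the other strand and had a log2FC of -0.49 (SE 0.11, adjusted P = 0.00812 by edgeR) and then 0.21 (SE 0.11, adjusted P = 0.339 by edgeR). Pfn1, 97 bp away on the strand of Gm12319, had a log2FC of -0.03 (SE 0.14, adjusted P = 0.903 by edgeR). Whether the counting used the strand is not stated by the sources used here. The part of reads from these genes in the counts of Fam131a and Gm12319 was not tested.

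The neighbours of the remaining members were as follows. Ntmt1 is also the nearest gene to the right of 1700001O22Rik, 4165 bp away on the other strand, and was not called, as was Cstad to the left. Gorab and Kifap3 beside Mettl11b, and Ythdc2 and Trim36 beside Kcnn2, were not called in the comparisons that chose the members. Beside Pla2g7, Adgrf5, a receptor of endothelial and epithelial cells, was lower in KO_PBS than in WT_PBS (log2FC -0.49, SE 0.13, adjusted P = 0.0201 by edgeR), and so was Slc25a27, a mitochondrial carrier (log2FC -0.31, SE 0.09, adjusted P = 0.0391 by edgeR). The calls of Adgrf5, Slc25a27 and Eif4g1 were lost with library totals and without KO_PBS replicate 1 or WT_PBS replicate 3, and that of Slc25a27 in 9 of 23 alternatives in all. Annotated genes that overlap Pla2g7 or Kcnn2 on the other strand had at most 0.438 counts on average.

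ASO1 was compared in wild-type mice to see whether the members also moved where Bin1 was intact. The WT_PBS samples took part in the choice of all 6, and the WT_ASO samples in that of Kcnn2 and 1700001O22Rik, so the values are a description with no test. The log2FC for WT_ASO vs WT_PBS was 0.08 (SE 0.19) for Mettl11b, -0.08 (SE 0.22) for Pla2g7 and -0.07 (SE 0.40) for 1700001O22Rik. It was 0.09 (SE 0.15) for Fam131a and -0.01 (SE 0.14) for Gm12319, so that for these 5 it was smaller than its SE. Kcnn2 had the most distant value, -0.30 (SE 0.17), with its 4 WT_ASO samples below its 4 WT_PBS samples, an arrangement found in 1.42% of all genes tested, and in 3.22% counting either direction.

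The effect of ASO1 in knockout minus that in wild-type mice was positive for all 6, from 0.57 (SE 0.21) for Fam131a to 3.82 (SE 0.66) for 1700001O22Rik on the log2 scale. It was 0.78 (SE 0.20) for Gm12319, 1.13 (SE 0.27) for Mettl11b, 1.22 (SE 0.24) for Kcnn2 and 1.37 (SE 0.31) for Pla2g7. This difference contains the rise in knockout mice on which all 6 were selected, and it took part itself in the choice of 1700001O22Rik and Kcnn2, so its calls are no test and nothing is read from them. They held those 2 members by edgeR, where 0.0602% of genes were called positive and 0.575% either way. The number called was 0 without KO_PBS replicate 1. It was 1 without the filter on low counts and when any of KO_ASO replicates 1 and 3, WT_ASO replicates 1 and 3 or WT_PBS replicates 1, 3 and 4 was left out. It was 3 without KO_ASO replicate 4 or with the replicate block, and 5 with DESeq2 or limma-voom. Over all genes 9 were called positive, and 0 without KO_PBS replicate 1, 17 without KO_ASO replicate 4 and 23 with the block. That number was 83 with DESeq2 and 20 with limma-voom, so the count of members moved with the whole table.

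**Figure D4:**
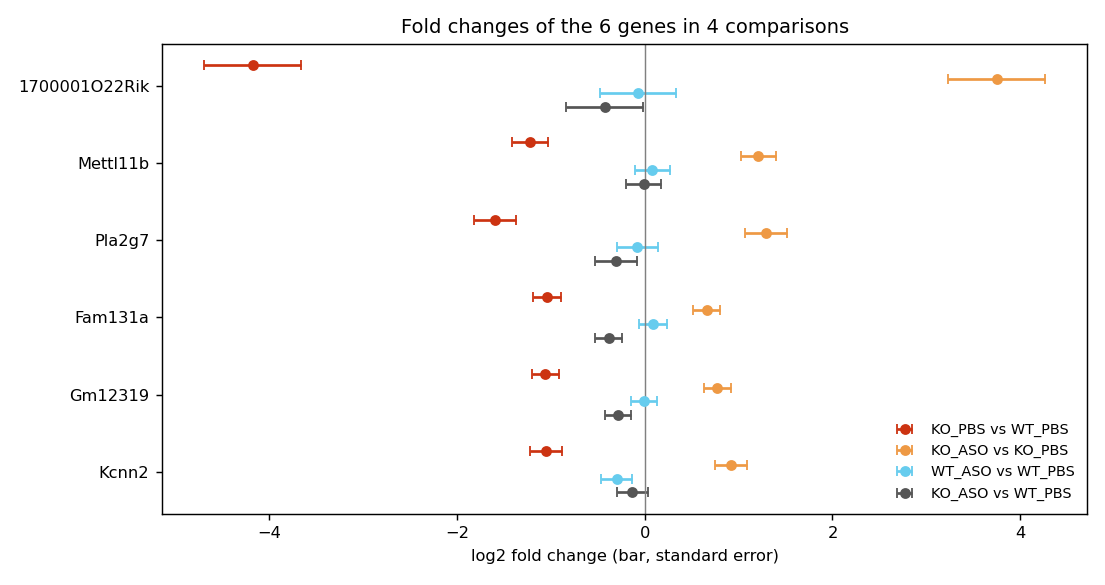
The log2FC (horizontal axis) of each of the 6 genes in 4 comparisons, by colour, with bars of 1 SE and a line at 0. KO_PBS vs WT_PBS lies left of 0 and KO_ASO vs KO_PBS right of 0 for every gene, and WT_ASO vs WT_PBS lies between -0.30 and 0.09.

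Against wild-type mice, KO_ASO differed from WT_PBS by a log2FC of -0.43 (SE 0.41) for 1700001O22Rik, -0.39 (SE 0.15) for Fam131a, -0.31 (SE 0.22) for Pla2g7, -0.28 (SE 0.14) for Gm12319, -0.13 (SE 0.17) for Kcnn2 and -0.01 (SE 0.19) for Mettl11b. It differed from WT_ASO by -0.36 (SE 0.41), -0.48 (SE 0.15), -0.22 (SE 0.22), -0.28 (SE 0.14), 0.16 (SE 0.17) and -0.09 (SE 0.19) in the same order of genes. Both comparisons share KO_ASO samples that took part in the choice, so no test is given.

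Recovery was expressed as the share of the log2 distance from the KO_PBS mean to the WT_PBS mean covered by each KO_ASO sample. Fam131a had the lowest mean, 64.6% ± 6.96 (SD, n = 4), with 65.3%, 63.2%, 73.3% and 56.4% in replicates 1 to 4. Gm12319 recovered 77.6%, 57.5%, 105.4% and 47.3%, a mean of 72.0% ± 25.6 (SD, n = 4). 1700001O22Rik recovered 106.4%, 91.5%, 94.4% and 36.7%, a mean of 82.3% ± 31.0 (SD, n = 4). The other 3 genes had higher means, and their samples overlapped those of Gm12319 and 1700001O22Rik.

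Pla2g7 recovered 88.6%, 84.5%, 89.3% and 68.0%, a mean of 82.6% ± 9.94 (SD, n = 4). Kcnn2 recovered 73.3%, 60.5%, 76.3% and 131.3%, a mean of 85.4% ± 31.4 (SD, n = 4). Mettl11b recovered 120.6%, 119.7%, 94.0% and 55.0%, the highest mean at 97.4% ± 30.8 (SD, n = 4). The samples of genes next to each other in this order overlapped, and the differences in recovery between genes were not tested. The median over the 6 was 82.4%, with sample medians from 55.7% to 91.7%. Among all 766 genes lower in KO_PBS the median was 62.3%, with quartiles of 47.1% and 76.7%, and among the 97 DEGs in both directions it was 82.8%, a set picked for its rise as the members were.

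**Figure D5:**
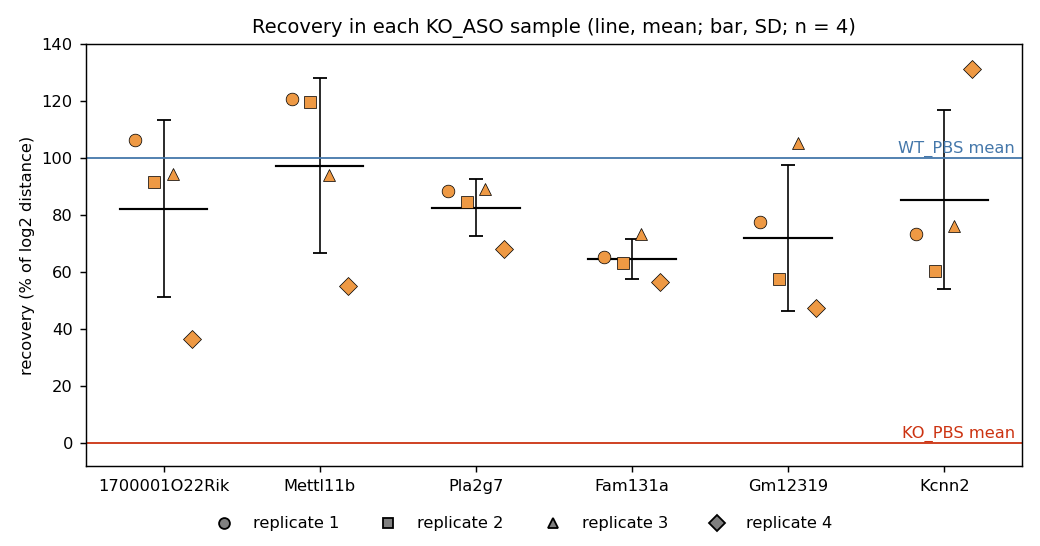
Recovery (% of the log2 distance from the KO_PBS mean at 0 to the WT_PBS mean at 100) of each gene in the 4 KO_ASO samples, with marker shapes for replicate numbers, a line at the mean and bars of 1 SD. Replicate 4 is the lowest for 5 genes, 36.7% for 1700001O22Rik at the least, and the highest for Kcnn2 at 131.3%.

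KO_ASO replicate 4 was thus the lowest sample of its group for 5 of the 6 genes. It also had the highest Dnm2 of KO_ASO, 31.1 CPM beside 24.4, 20.7 and 22.8, and the highest macrophage sum, 88.3 CPM beside 62.4, 58.0 and 69.8. Without it the recovery was 97.4% for 1700001O22Rik, 111.5% for Mettl11b, 87.5% for Pla2g7, 67.3% for Fam131a and 80.2% for Gm12319, and 70.1% for Kcnn2. KO_PBS replicate 1 was the lowest of its group for 5 genes, with the lowest fast fibre sum, 117600 CPM beside 138600 to 147500, and the highest denervation sum, 555.8 CPM beside 410.6 to 470.3. The part of Dnm2, macrophages and fibre state in the spread of the members was not tested. Of 13 fast fibre markers 5 were called lower in KO_PBS vs WT_PBS, with 0 without KO_PBS replicate 1, 1 without WT_PBS replicate 2, 3 without KO_PBS replicate 4 or WT_PBS replicate 1, 3 or 4, 2 with the compared groups alone, 0 with library totals and 8 with limma-voom.

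Apart from 1700001O22Rik with Mettl11b, pairs of members without Kcnn2 stood at distances of 0.359 to 0.591, and Kcnn2 stood at 0.668 to 0.779 from every other member. The genes nearest to Gm12319 were Smox, a spermine oxidase, at 0.235 and Calm3, a calmodulin gene, at 0.257. Smox had a log2FC of -2.66 in KO_PBS vs WT_PBS and 1.68 in KO_ASO vs KO_PBS. Nearest to Fam131a were Lrrc20 at 0.245 and Bpgm, the enzyme that makes bisphosphoglycerate, at 0.268. Dicer1, which cuts small RNA precursors, came after 1700001O22Rik for Mettl11b at 0.298, and Rap1gds1 came after it for Pla2g7 at 0.467. Nearest to Kcnn2 were Rbpms, an RNA-binding protein of muscle, at 0.491 and Fam57b at 0.50. The distances cover 16 samples in 4 groups and hold the difference between groups on which the members were selected.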

How the data were processed

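RNA of the tibialis anterior was sequenced in 16 samples, 4 per group, after TRI Reagent extraction and stranded mRNA libraries per the labels. The authors deposited unnormalized counts of reads for each Ensembl gene. Tools listed by the submitters' processing notes are STAR 2.5.3a, HTSeq 0.6.1p1, Bowtie2 2.2.8 and cutadapt 1.10, with the build GRCm38 (mm10). The sources used here do not give the role of each tool or the strand setting. All 29730 identifiers matched GENCODE for GRCm38, which gave symbols and positions.

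The filter on low counts (filterByExpr, by group) took out 14770 genes. Libraries were scaled by TMM and tested with edgeR 4.0.16 (R 4.3.3), in a quasi-likelihood fit, robust, over all 16 samples with 1 mean for each group, and Benjamini-Hochberg adjustment within a comparison over 14960 genes. The biological coefficient of variation was 18.7%. CPM are on TMM-scaled sizes, recovery used log2 CPM with a prior count of 2, and CPM per kb used the union of exons. With TMM the median gene differed by -0.0076 on the log2 scale between KO_PBS and WT_PBS, and by 0.14 without scaling. Alternatives were DESeq2 1.42.0, limma 3.58.1 (voom with sample quality weights), other scalings, no filter, the compared groups alone, a replicate block and each sample left out. The scripts were tested on simulated data.

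The members and lists were chosen with earlier results of these data known. Genes named were the members, Bin1 and Dnm2, the 2 genes with the closest profile to each member, the nearest tested gene on each side and overlapping genes, called genes of the family lists, and the SK and FAM131 families. Samples of a group differed by more than counting error, with a mean chi-square per gene of at least 22.2 where noise gives about 1. The labels speak of groups of mice without naming an animal per sample, so P values measure the spread between these samples.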

Additional observations from a re-analysis of the deposited data

Results flagged for a closer look

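In WT_ASO, replicate 4 had 27.3 CPM of Mettl11b, far below the other 3 samples at 42.4 to 44.9 CPM. The same sample was the lowest of its group for 1700001O22Rik, with 2.03 CPM. Of 24 sets of 4 samples examined, this was the 1 in which the end sample stood apart, and chance alone gives about 1 in 20.

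The effect of ASO1 differed between knockout and wild-type mice for 1700001O22Rik, by 3.82 on the log2 scale, and for Kcnn2, by 1.22. Both genes were selected on their rise in knockout mice, which is part of this difference, and on the difference itself, so it is given as a description and nothing is read from its calls. The difference was no longer called in 9 of 22 alternatives for Kcnn2, each of them leaving out 1 sample, and in 2 of 22 for 1700001O22Rik, without the filter on low counts and without KO_PBS replicate 1. For 1700001O22Rik the 4 KO_PBS samples held 6 to 13 counts each. For Kcnn2 the log2FC with ASO1 was 0.92 (SE 0.17) in knockout mice and -0.30 (SE 0.17) in wild-type mice, the latter given with no test.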

How the results depend on the processing

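All 6 members were called lower in KO_PBS under 23 alternatives, and 4 to 6 were called higher in KO_ASO vs KO_PBS, with none reversed in either. The members were chosen on these 2 comparisons, so nothing is read from these counts. Over all genes 260 to 1268 were called lower in KO_PBS and 22 to 439 higher in KO_ASO over the same alternatives. Median recovery was 71.8% to 84.8% over 15 alternatives. On linear CPM, recovery was 54.4% for Fam131a, beside 64.6%, and 71.4% for Pla2g7, beside 82.6%, each a move of more than 1 SD. The difference between genotypes in the effect of ASO1 was called for 2 members, and for 5 with DESeq2, 5 with limma-voom, 1 without the filter and 0 to 3 with a sample left out, where 0 was without KO_PBS replicate 1. Over all genes the number called positive for this difference ran from 0 to 83 in the alternatives. The call of Fam131a in KO_ASO vs KO_PBS was lost with the compared groups alone and without KO_ASO replicate 1, 2 or 3 or KO_PBS replicate 1 or 4, and that of Kcnn2 with the compared groups alone. The cause was not tested.

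Some log2FC near 0 changed sign. For Mettl11b, KO_ASO vs WT_PBS was 0.0437 with library totals and 0.0573 with limma-voom, and KO_ASO vs WT_ASO was 0.0172 with library totals. With a sample left out the ranges were -0.23 to 0.17 for 1700001O22Rik, -0.11 to 0.0737 for Gm12319 and -0.19 to 0.0332 for Pla2g7 in WT_ASO vs WT_PBS, -0.0221 to 0.25 for Kcnn2 and -0.23 to 0.0549 for Mettl11b in KO_ASO vs WT_ASO, and -0.11 to 0.13 for Mettl11b in KO_ASO vs WT_PBS.

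Same-numbered samples of different groups had correlated deviations above 0.1 in 11 of 24 pairs (-0.078 to 0.435). Samples with different numbers were not compared in this way, so the check cannot decide whether the numbers pair samples. The main fit did not pair them, and a replicate block was run as an alternative. With the replicate block the count for the difference between genotypes was 3, with Mettl11b added (log2 value 1.12), and over all genes 1017 were lower in KO_PBS, beside 766, and 198 were higher in KO_ASO, beside 120. The block changed no other count of members. The 2 counts were 1054 and 328 with DESeq2, 1268 and 439 with limma-voom, 531 and 73 without the filter, 260 and 63 with library totals and 314 and 22 without KO_PBS replicate 1. The second was 29 without KO_ASO replicate 1 and 280 without KO_ASO replicate 4. Depth limits 1700001O22Rik in KO_PBS, at 6 to 13 counts. The alternatives for the marker and family lists were chosen after seeing the data.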

Other observations

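Other cell type markers were examined beside the members. In KO_PBS vs WT_PBS 4 of 8 fibroblast markers and 2 of 10 slow fibre markers were called higher, 4 of 5 satellite cell markers were called lower, and 0 of 6 endothelial, 0 of 6 Schwann and nerve, 0 of 5 fat cell and 0 of 5 red blood cell markers were called. The slow fibre count was 4 with the replicate block, without KO_ASO replicate 1 and when KO_PBS and WT_PBS were fitted alone, and 3 with DESeq2, with library totals and without KO_PBS replicate 3. In KO_ASO vs KO_PBS 1 fibroblast marker was called lower and 1 of the 5 genes of the fat cell list, Car3, was called higher. Car3 encodes a carbonic anhydrase that skeletal muscle also expresses abundantly, and it is named here after its values were seen. Its mean was 1294 CPM in KO_PBS and 3018 CPM in KO_ASO, with a log2FC of 1.22, whereas the median log2FC of the fat cell list was -0.52, and Adipoq, at -0.81, Plin1, at -0.52, and Cidec, at -0.75, were not called. The summed fibroblast level was 1056 to 1391 CPM in WT_PBS, 468.0 to 1992 in WT_ASO, 1350 to 2350 in KO_PBS and 552.0 to 1852 in KO_ASO, and the summed satellite cell level was 30.1 to 35.1, 29.2 to 41.5, 25.9 to 28.3 and 23.5 to 33.2 CPM in the same order. Most of the satellite cell sum was Cdh15, which was not called, with means of 20.5 CPM in WT_PBS and 21.3 in KO_PBS. In the same 2 groups the means were 4.23 and 1.60 CPM for Pax7 and 1.33 and 0.538 for Myf5. They were 0.687 and 0.125 CPM for Calcr and 5.08 and 3.38 for Vcam1. The part of all these cell types in the levels of the members was not tested.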
